A study of Rattus norvegicus with 47 samples.

Results

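Kupffer cells, the resident macrophages of the liver, were followed through 9 marker genes in RNA from whole rat liver. The genes were Clec4f, Lyz2, C1qa, C1qb, C1qc, Cd68, Cd163, Marco and Vsig4. A gene was measured where a probe set of the array carried its symbol and no other, and 7 of the 9 were measured that way, each by 1 probe set, among 14217 named genes. The probe sets were 1368755_at for Clec4f (chromosome 4), 1370154_at for Lyz2 (chromosome 7), 1376652_at for C1qa, 1370215_at for C1qb and 1373025_at for C1qc (all on chromosome 5), 1375010_at for Cd68 (chromosome 10) and 1393917_at for Cd163 (chromosome 4). Whether the Lyz2 probe set also reads other lysozyme genes was not tested. Marco, on chromosome 13, and Vsig4, on chromosome X, were not analysed here.

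The series held 47 Affymetrix arrays, 1 liver per array, in 13 groups of female Sprague-Dawley rats aged 8 weeks, from 3 experiments. In the first, pups of dams kept on a diet without vitamin A were fed a purified diet from weaning with retinol at 0 mg/kg (deficient, n = 5), 0.4 mg/kg (marginal, n = 7), 4 mg/kg (adequate, n = 6) or 100 mg/kg (supplemented, n = 2). In the second, rats raised the same way on the deficient diet received vehicle (0 h, n = 3) or about 100 µg of all-trans-retinoic acid (RA) and were killed after 3 h (n = 3), 6 h (n = 3), 10 h (n = 4) or 16 h (n = 3). In the third, rats on stock diet were given vehicle, fasted, anaesthetised with isoflurane and injected into the iliac vein with about 25 µg of RA bound to albumin, then killed after 30 min, 60 min or 90 min (n = 3 each), beside a vehicle group (0 min, n = 2). The titles call the control rats of both RA experiments untreated, whereas the treatment notes say that they received vehicle. The 20 arrays of the diet experiment carry database identifiers (mAdb) that fall into 2 runs, with 12 arrays in the first and 8 in the second. Deficient, marginal and adequate arrays occur in both runs (2, 4 and 4 in the first, 3, 3 and 2 in the second), and both supplemented arrays are in the first.

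Kupffer cells line the liver sinusoids, take particles, bacteria and aged blood cells out of the portal blood, and sit next to the stellate cells that store vitamin A. Clec4f is a C-type lectin receptor for galactose-bearing glycans, found almost only on Kupffer cells in rodents. Lyz2 encodes the lysozyme of macrophages and neutrophils, which cuts bacterial cell walls. C1qa, C1qb and C1qc encode the 3 chains of C1q, the recognition part of the first component of complement, which in most tissues is made by macrophages. Cd68 encodes a glycoprotein of the lysosome membrane in phagocytes, and Cd163 the receptor that takes up haemoglobin bound to haptoglobin. Marco is a scavenger receptor for bacteria, and Vsig4 a receptor for complement-coated particles. RA acts through nuclear receptors, for which the sequence AGGTCA is the half-site.

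The promoters of 4 genes are shown because these genes passed the test in a contrast of RA-treated livers described further on. Each is the 250 bases before the RefSeq start of the gene, on build GRCr8, written 5′ to 3′ on the gene's strand. Capitals mark matches on either strand to 3 motifs of 6 letters. The first is GAGGAA, the core of sites for the macrophage lineage factor PU.1, which reads TTCCTC on the other strand. The second is the nuclear receptor half-site AGGTCA, which reads TGACCT there. The third is TGCTGA, the half-site of MAF factors, which reads TCAGCA there. Clec4f lies at chr4:117696408-117696657, Lyz2 at chr7:54798012-54798261, C1qa at chr5:154419934-154420183 and C1qb at chr5:154407828-154408077, all on the minus strand.
Clec4f: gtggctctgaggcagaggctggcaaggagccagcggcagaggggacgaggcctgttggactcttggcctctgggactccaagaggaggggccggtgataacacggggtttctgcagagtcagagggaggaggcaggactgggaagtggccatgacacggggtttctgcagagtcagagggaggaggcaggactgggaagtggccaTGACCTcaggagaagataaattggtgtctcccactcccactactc
Lyz2: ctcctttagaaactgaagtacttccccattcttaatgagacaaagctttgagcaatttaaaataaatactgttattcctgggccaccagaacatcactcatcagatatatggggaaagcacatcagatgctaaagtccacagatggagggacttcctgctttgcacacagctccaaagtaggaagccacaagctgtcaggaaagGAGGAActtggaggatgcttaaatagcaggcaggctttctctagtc
C1qa: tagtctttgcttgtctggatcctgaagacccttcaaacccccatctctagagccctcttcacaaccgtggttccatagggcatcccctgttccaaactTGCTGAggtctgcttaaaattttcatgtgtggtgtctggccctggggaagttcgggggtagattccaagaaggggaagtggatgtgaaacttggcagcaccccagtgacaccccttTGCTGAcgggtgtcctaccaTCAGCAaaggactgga
C1qb: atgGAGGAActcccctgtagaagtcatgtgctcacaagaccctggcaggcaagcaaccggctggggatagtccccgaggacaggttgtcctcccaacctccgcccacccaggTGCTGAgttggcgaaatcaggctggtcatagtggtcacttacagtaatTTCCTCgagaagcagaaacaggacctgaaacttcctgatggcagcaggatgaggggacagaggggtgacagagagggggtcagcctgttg
Clec4f held 1 AGGTCA, from 45 to 40 bases before the start, and Lyz2 held 1 GAGGAA, from 46 to 41 bases before it. C1qa held TGCTGA 3 times, the nearest from 16 to 11 bases before the start, and C1qb held GAGGAA 2 times and TGCTGA 1 time. Of the 6 markers with an entry in the RefSeq table, 3 held GAGGAA (C1qb, Lyz2 and Cd68), 1 held AGGTCA and 2 held TGCTGA, while Cd163 held none of the 3. Among 33469 promoters of the same length the shares were 23.3% for GAGGAA, 14.1% for AGGTCA and 15.1% for TGCTGA. C1qb, C1qc and C1qa are direct neighbours on chromosome 5, and C1qc has no entry in the table.

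All values are log2 signals as deposited, with the median of every array at 0, so a value says how far a probe set lies above the middle of its own array. Hepatocyte genes were high on every array, with albumin (Alb) never under 8.13. The lowest signal of an array, its floor, lay between -5.71 and -5.30 in the first run of the diet experiment, between -4.46 and -3.32 in the second, between -6.12 and -5.24 in the RA time course and between -4.82 and -4.10 in the intravenous experiment. No marker value was at a floor. Deficient replicates 1 and 2, both in the second run, stood apart from the other second-run arrays: the interquartile range of their log2 signals was 2.71 and 2.86, against 3.11 to 3.33, and 65 and 168 probe sets sat at the floor, against 1594 to 3172. Vehicle 0 h replicate 2 goes against its label in Cyp2c22, a retinoid-responsive cytochrome, at 7.11 against 2.54 and 2.83 in the other vehicle livers. Its Lrat, which esterifies retinol and falls in deficiency, was at 2.62 against -0.39 and -4.18. Rarb, an RA receptor gene, was at 4.32 there against 3.25 and 3.52. Its Cyp26a1, the RA hydroxylase, was not apart, at -1.14 between -0.89 and -4.73. At 16 h the 3 RA livers also differed among themselves, with Cyp26a1 at 0.38, -2.71 and 4.16.

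All 7 markers lay above the array median on all 47 arrays. The lowest single value was 0.93, for Cd163. Clec4f ranged between the 94.2 and 98.3 percentile of its array across all 3 experiments, C1qa between 91.0 and 97.5, and Cd163 between 66.1 and 86.1.

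Groups that were close in level overlapped. When the groups were ordered by their mean, each gene gave 12 pairs of neighbours, and no pair had ranges that were apart. A gap between neighbours exceeded the larger of their SDs in 1 pair for C1qb (supplemented above RA 60 min, 4.02 against 3.80) and in none for the other 6. RA 16 h was the lowest group for C1qa (3.65 ± 0.70, SD, n = 3), C1qb (2.35 ± 0.73), C1qc (2.43 ± 0.42), Cd68 (2.27 ± 0.78) and Cd163 (1.29 ± 0.40). The lowest group was vehicle 0 min for Clec4f (4.41 ± 0.49, n = 2) and RA 60 min for Lyz2 (3.79 ± 0.26, n = 3). Deficient livers of the second run alone had means below these for C1qa (3.36), C1qc (1.83), Cd68 (2.17) and Clec4f (4.19). For C1qb, Cd163 and Lyz2 they did not. Supplemented livers were the highest group for all 3 C1q chains and Cd68, vehicle 0 h for Lyz2, RA 3 h for Clec4f and RA 6 h for Cd163. These orders set levels from 3 separate experiments side by side, pool the runs of the diet experiment and were not tested. Both supplemented livers are in the first run, where most markers were higher, and among the first-run means supplemented was not the highest for any of these 4 genes: C1qb was 4.02 against 4.45 in deficient livers, C1qc 3.79 against 4.23 in deficient, C1qa 5.18 against 5.34 in marginal and Cd68 3.11 against 3.47 in marginal.

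**Figure D1:**
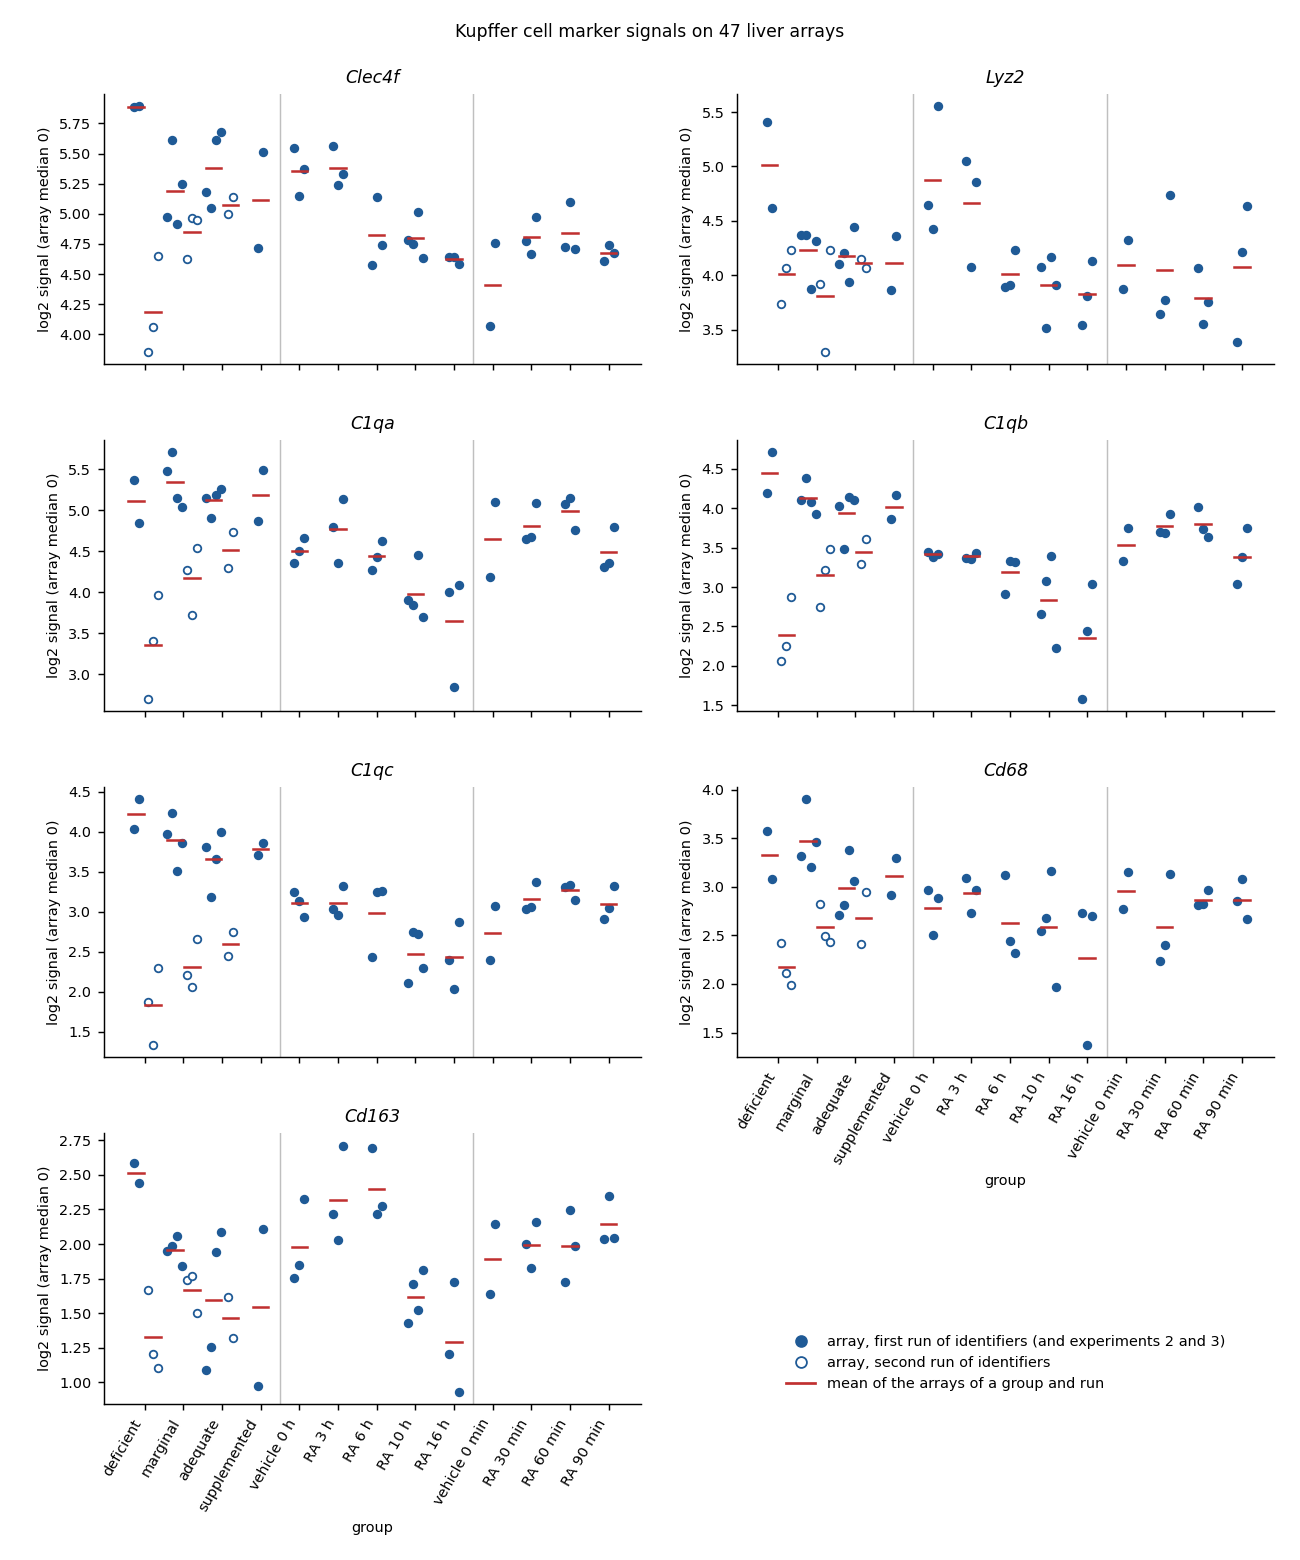
Log2 signal (y axis, array median 0) of each of the 7 measured markers in the 13 groups (x axis); each point is an array, with open points for the second run of the diet experiment, and bars mark the mean of each group within its run. In the diet groups the open points of C1qa and C1qc all lie below the filled ones. With the runs pooled, which the bars do not show, the RA 16 h mean was lowest for 5 of the 7 genes. The second-run deficient bars lie below RA 16 h for C1qa, C1qc and Cd68.

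The contrast in which most markers passed the test was that between the runs of the diet experiment. C1qc was lower in the second run by 1.65 ± 0.18 (log2, SE), a 3.14-fold difference, with diet in the same model. Its signal ran from 3.18 to 4.41 (median 3.86) on the 12 arrays of the first run and from 1.33 to 2.75 (median 2.25) on the 8 of the second, so the runs did not overlap. In bulk tissue, fewer Kupffer cells and less RNA of a gene per cell cannot be told apart.

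C1qa ran from 4.85 to 5.70 (median 5.16) in the first run and from 2.70 to 4.73 (median 4.12) in the second, again without overlap. C1qb ran from 3.49 to 4.71 (median 4.11) and from 2.06 to 3.61 (median 3.05), with a narrow overlap. C1qa differed by -1.16 ± 0.18 (limma with Benjamini-Hochberg adjustment over all probe sets, adjusted p = 2.62e-05) and C1qb by -1.13 ± 0.18 (adjusted p = 4.66e-05), beside 1.09e-07 for C1qc. The lysosomal marker Cd68 ran from 2.71 to 3.90 (median 3.25) in the first run and from 1.99 to 2.94 (median 2.43) in the second. Clec4f ran from 4.71 to 5.90 (median 5.38) and from 3.85 to 5.14 (median 4.80). These genes overlapped between the runs, and both were lower in the second, Cd68 by -0.78 ± 0.16 (adjusted p = 7.37e-04) and Clec4f by -0.72 ± 0.18 (adjusted p = 0.00703). Lyz2 ran from 3.87 to 5.41 (median 4.34) and from 3.30 to 4.23 (median 4.07). It was the smallest of the called differences (-0.47 ± 0.16, adjusted p = 0.0437). Cd163 ran from 0.98 to 2.59 (median 1.97) and from 1.10 to 1.77 (median 1.56), and its difference of -0.49 ± 0.20 did not pass (adjusted p = 0.107). Each run difference is a single value over the diets, which were not alike. Clec4f had means of 5.89 and 4.19 in the 2 runs in deficient livers, 5.19 and 4.85 in marginal and 5.38 and 5.07 in adequate ones. In the same order Lyz2 had 5.02 and 4.01, 4.23 and 3.81, and 4.17 and 4.11. C1qc had 4.23 and 1.83, 3.89 and 2.31, and 3.66 and 2.60.

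In all, 6 of 7 markers passed the test at an adjusted p of 0.05, all lower in the second run, where 13.6% of all 27595 tested probe sets passed and 10.2% did so with a lower value. The median marker difference was -0.78, against -0.047 for all tested. The groups did not overlap for 2 of 7 markers, against 1.92% of all tested probe sets with every second-run array below every first-run array. After quantile normalization, 4 of 7 markers passed (the C1q chains and Cd68), while the share of lower values among all called probe sets went from 74.7% to 51.6%. The share of all tested probe sets that passed after that normalization is not given here. The runs also differed in the floor of the arrays, given above, and the part of that in the result was not tested.

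**Figure D2:**
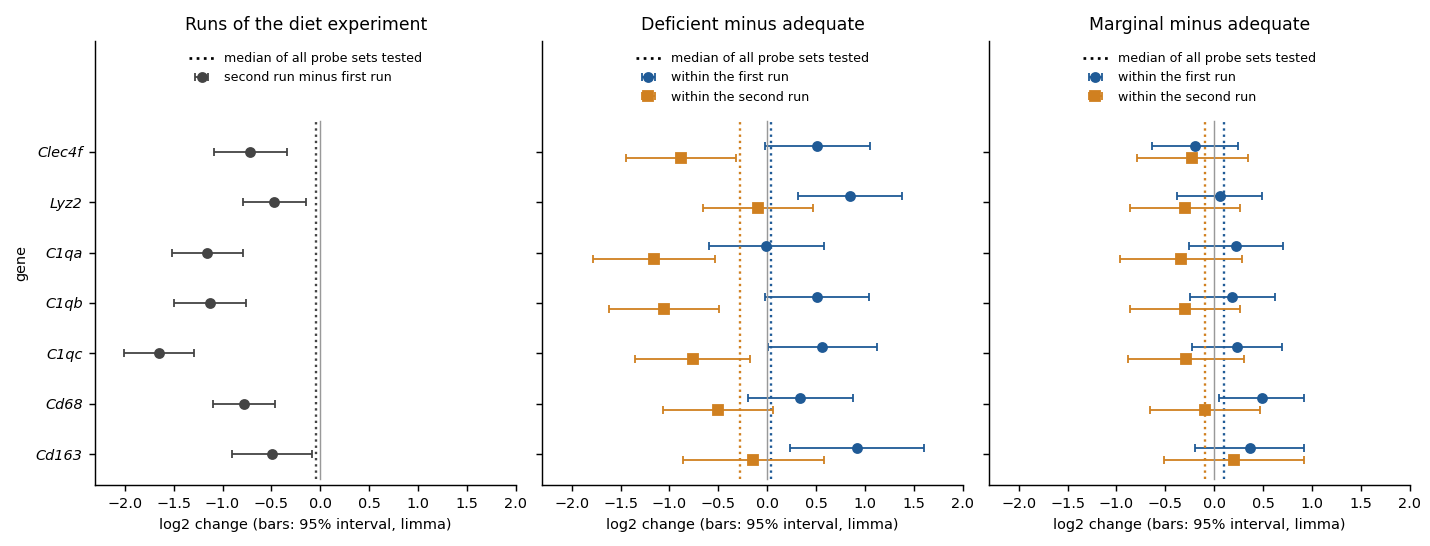
Log2 change with its 95% interval (x axis, limma) for each marker (y axis). The panels show second run against first run, deficient against adequate within each run, and marginal against adequate within each run, and dotted lines give the median of all probe sets tested. All 7 deficient-minus-adequate differences lie further left in the second run than in the first.

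No diet difference of a marker passed the test. Of 7 markers, 0 passed in deficient against adequate livers (1.08% of all probe sets did), 0 in marginal against adequate (0% of all), 0 in supplemented against adequate (0.0109%), 0 in supplemented against deficient (0.42%) and 0 in marginal against deficient (1.69%). By the same limma test, an unadjusted p under 0.05 was reached by 1 of 7 in deficient against adequate (12.7% of all probe sets), by 2 of 7 in marginal against deficient (15.4%) and by 0 of 7 in marginal against adequate (3.32%), supplemented against adequate (3.63%) and supplemented against deficient (8.62%).

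C1qa, at 2.70, 3.40, 3.97, 4.85 and 5.37 in the 5 deficient livers, ran from 4.3 to 5.25 (median 5.02) in the 6 adequate ones. The groups overlapped, the deficient livers were the more variable, and the difference was the largest of the 7 at -0.55 ± 0.23 (adjusted p = 0.293). Lyz2 lay on the other side, at 3.74, 4.07, 4.23, 4.62 and 5.41 in deficient livers and from 3.94 to 4.44 (median 4.13) in adequate ones. Its difference of 0.39 ± 0.20 did not pass either (adjusted p = 0.427), although after quantile normalization Lyz2 alone passed. The median marker difference was -0.076, against -0.11 for all probe sets tested, and it turned to 0.091 after quantile normalization, which also took the share of lower values among all called probe sets from 92.6% to 64.8%. It was 0.078 when 4 arrays that stood apart in earlier work on these data were left out (replicates 1, 2 and 5 of the deficient and replicate 5 of the adequate group). Without deficient replicate 4, C1qa passed (1 of 7). The shares of all probe sets that passed under the alternatives in this paragraph are not given here. In marginal against adequate livers the median was 0.037 (all tested 0.037), with the largest difference in Cd163 (0.33 ± 0.23, 95% interval -0.14 to 0.80). In marginal against deficient livers it was 0.14 (all tested 0.15), turning to -0.063 after quantile normalization, where Lyz2 passed, and C1qa passed without deficient replicate 4. In supplemented against adequate livers all 7 markers were below 0, with a median of -0.14 (all tested 0.032) and none past the test, and both supplemented arrays are in the first run.

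Clec4f, C1qb and C1qc were apart between deficient and adequate livers in both runs, in opposite directions. In the first run Clec4f was at 5.89 and 5.90 in the 2 deficient livers and at 5.05, 5.18, 5.61 and 5.68 in the 4 adequate ones. In the second run it was at 3.85, 4.06 and 4.65 in the 3 deficient livers and at 5.00 and 5.14 in the 2 adequate ones. The deficient livers were thus above every adequate liver in the first run and below every one in the second.

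C1qb had 4.19 and 4.71 in deficient against 3.49, 4.04, 4.11 and 4.15 in adequate livers of the first run. In the second run it had 2.06, 2.25 and 2.87 against 3.29 and 3.61. C1qb therefore changed sides without overlap in either run, and so did C1qc, with 4.04 and 4.41 against 3.18 to 3.99 in the first run and 1.33 to 2.30 against 2.44 and 2.75 in the second. Lyz2 and Cd163 were above every adequate liver in the first run, and overlapped with them in the second. C1qa overlapped in the first run and was below every adequate liver in the second.

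The median difference of deficient from adequate livers was 0.51 in the first run, with 6 of 7 markers above 0 (all tested 0.038), and -0.76 in the second, with 7 of 7 below 0 (all tested -0.28); after quantile normalization the medians were 0.47, with 1 of 7 below 0, and -0.32, with 4 of 7 below 0. No marker passed within a run, where 0.326% of all probe sets passed in the first and 1.05% in the second. The nearest were C1qb (-1.06 ± 0.28, adjusted p = 0.0538) and C1qa (-1.16 ± 0.30, adjusted p = 0.0554), both in the second run. Within the second run 4 of 7 passed with array weights and without deficient replicate 3 (Clec4f and the C1q chains in both cases). C1qa and C1qb passed without deficient replicate 4 or replicate 5, C1qb alone without adequate replicate 4 or replicate 5 and with gene means, and C1qa alone with the offset. The 1.05% given above is the share of all probe sets in the reported fit, and the shares under these alternatives are not given here. Within the first run 0 of 7 passed under every alternative run. In the first run 5 of 7 markers had every deficient array above every adequate one, against 8.16% of all tested probe sets, and in the second 4 of 7 had every deficient array below, against 24.5%.

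Several other lists and the quality of the arrays moved with this pattern, while other lists did not, and their part in it was not tested. The summed linear signal of the 7 markers had a median of 185.0 in deficient and 136.6 in adequate livers of the first run, and of 57.9 and 100.4 in the second. Hepatocyte genes had medians of 5731 and 3759 in the first run and 2845 and 3467 in the second, and MHC class II genes 188.0 and 92.3, then 62.3 and 65.7. Complement genes had 2113 and 1969, then 1097 and 1764, stellate genes 76.0 and 67.9, then 57.5 and 81.5, and blood genes 187.3 and 180.6, then 59.6 and 102.9. Other Kupffer and resident macrophage genes had 336 and 268, then 154 and 229, and recruited-cell genes 17.7 and 10.9, then 7.02 and 10.3. Endothelial genes (69.55 and 81.9, then 45.7 and 74.9) and B cell genes (6.47 and 7.29, then 3.72 and 6.07) were lower in deficient livers in both runs. Cholangiocyte genes (7.90 and 7.19, then 8.73 and 5.79) and T and NK cell genes (14.1 and 11.7, then 12.7 and 12.0) were higher in both. Of the 3 second-run deficient livers, the 2 with the narrow signal range given above had the lowest Clec4f, Lyz2, C1qa, C1qb and C1qc. Cd68 (1.99) and Cd163 (1.10) were instead lowest in replicate 3, which had a wider signal range.

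The difference between the runs was tested as an interaction of diet and run. It was below 0 for all 7 markers, from -1.56 ± 0.38 for C1qb to -0.84 ± 0.38 for Cd68, with a median of -1.15 against -0.33 for all tested, and after quantile normalization all 7 were still below 0 with a median of -0.67. Without the 4 arrays that stood apart, which leaves 1 deficient liver in each run, the median was -1.0 and 0 of 7 passed. After adjustment 0 of 7 passed, with the smallest adjusted p at 0.156 for C1qb, and 0.0544% of all probe sets did. All 7 had an unadjusted limma p under 0.05, against 8.83% of all tested probe sets with such a p and a value below 0. That count is for the values as deposited. After quantile normalization the interaction was -0.775 ± 0.292 for Clec4f, -1.036 ± 0.326 for C1qb and -0.884 ± 0.364 for C1qc. It was -0.551 ± 0.310 for C1qa, -0.672 ± 0.492 for Cd163, -0.314 ± 0.372 for Cd68 and -0.235 ± 0.310 for Lyz2. The smallest adjusted limma p was then 0.534 (C1qb). With 1 deficient liver left out, C1qb passed without replicate 4, and Clec4f and C1qb passed without replicate 3. The shares of all probe sets that passed with these livers left out are not given here. The same interaction for marginal livers passed for 0 of 7 markers (0% of all probe sets) and reached an unadjusted limma p under 0.05 for 0 of 7 (3.96% of all), with a median of -0.48.

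Of 4 genes chosen to check the retinoid state, 1 passed the same interaction. Cyp2c22 was at 3.86 and 3.06 in the 2 deficient livers of the first run and at 0.67, 1.07 and 0.90 in the 3 of the second. Its interaction of diet and run was -2.40 ± 0.41 (adjusted p = 0.00876). Cyp26a1 (-1.76 ± 0.90, adjusted p = 0.453), Lrat (-1.39 ± 0.77, adjusted p = 0.48) and Rarb, an RA receptor gene (-0.71 ± 0.49, adjusted p = 0.576), did not pass. The part of Cyp2c22's pattern in the marker difference was not tested.

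RA given to deficient rats was followed for 16 h. The only vehicle group was at 0 h, so in all contrasts of this course RA and the time since dosing cannot be told apart. Clec4f fell, from 5.15, 5.37 and 5.55 in the 3 vehicle livers to 4.59, 4.64 and 4.64 at 16 h. Lyz2 fell from 4.43, 4.65 and 5.56 to 3.54, 3.81 and 4.14, and C1qb from 3.38, 3.42 and 3.45 to 1.58, 2.44 and 3.04. The groups did not overlap for any of these. The changes were -0.73 ± 0.20 for Clec4f (1.66-fold lower, adjusted p = 0.0308), -1.05 ± 0.28 for Lyz2 (2.07-fold lower, adjusted p = 0.0234) and -1.07 ± 0.31 for C1qb (2.09-fold lower, adjusted p = 0.0404).

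C1qa, with 4.35, 4.50 and 4.67 in vehicle livers and 4.01, 2.84 and 4.09 at 16 h, did not pass (-0.86 ± 0.28, adjusted p = 0.0583). C1qc had 3.25, 3.14 and 2.94 in vehicle livers and 2.39, 2.03 and 2.87 at 16 h (-0.68 ± 0.29, adjusted p = 0.169). Cd163 had 1.76, 1.85 and 2.33 and then 1.21, 1.73 and 0.93 (-0.69 ± 0.34, adjusted p = 0.233). None of these 3 overlapped between the groups, and the replicate with the lowest value was not the same for each gene. Cd68 had 2.96, 2.51 and 2.89 in vehicle livers and 2.73, 1.37 and 2.70 at 16 h. It overlapped, with 1 low liver among the RA-treated (-0.52 ± 0.35, adjusted p = 0.41).

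At 16 h, 3 of 7 markers passed, all lower, where 6.11% of all 28869 tested probe sets passed and 5.89% were lower. Every RA liver was below every vehicle liver for 6 of 7 markers, against 13.8% of all tested. The median of the markers was -0.73, but the median of all tested probe sets was itself -0.39, so relative to it the changes were -0.34 for Clec4f, -0.66 for Lyz2 and -0.67 for C1qb. After quantile normalization between arrays, which brought the median of all tested to -0.06 and the share of lower values among called probe sets from 96.4% to 65.6%, 0 of 7 markers passed, the median marker change was -0.26, and Cd68 was at 0.008, on the other side of 0. The 3 calls also ended without an intensity trend in the variance prior (0 of 7). Without RA 16 h replicates 1 and 2, which stood apart in earlier work on these data, 1 RA liver was left, so that the lack of calls (0 of 7) says little; the median marker change was then -0.41. Leaving out 1 liver gave 0 calls without RA 16 h replicate 1, RA 16 h replicate 2 or vehicle 0 h replicate 3. It gave 1 call (Lyz2) without vehicle 0 h replicate 2, whose Cyp2c22 and Lrat go against its label. It gave 4 without vehicle 0 h replicate 1 and 5 without RA 16 h replicate 3. The median marker change was between -0.89 and -0.73 in all 6 cases. The shares of all probe sets that passed in these 6 fits are not given here.

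The earlier times had no calls. At 3 h the median marker change was 0.021 (all tested 0.029; -0.070 after quantile normalization), 0 of 7 passed (0.0762% of all probe sets did) and none had an unadjusted limma p under 0.05 (3.27% of all did). Cyp26a1, a check of the treatment, had risen by then by 6.30 ± 0.94 (adjusted p = 0.0022). At 6 h the median was -0.16 (all tested -0.088) and 0 of 7 passed (0.201%), with 2 at an unadjusted limma p under 0.05 (5.11% of all). Lyz2, at 3.89, 3.91 and 4.24, lay below every vehicle liver (-0.87 ± 0.28, adjusted p = 0.465). Clec4f, at 4.58, 4.74 and 5.14, also did, narrowly (-0.54 ± 0.20, adjusted p = 0.716), while Cd163, at 2.22, 2.28 and 2.70, had its highest mean of the course.

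At 10 h all 7 markers were below 0 (6 of 7 after quantile normalization), with a median of -0.56 (all tested -0.19), and 0 of 7 passed (0.488%), and 4 of 7 had an unadjusted limma p under 0.05 (9.6%). Lyz2 was at 3.51, 3.91, 4.07 and 4.17, all below the lowest vehicle liver, and was the nearest to passing (-0.96 ± 0.26, adjusted p = 0.104). Clec4f was at 4.63, 4.75, 4.78 and 5.02, also below (-0.56 ± 0.19, adjusted p = 0.252). C1qc, at 2.11, 2.29, 2.72 and 2.74, was the third gene without overlap (-0.64 ± 0.28, adjusted p = 0.446), which makes 3 of 7 against 7.46% of all tested probe sets.

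Between 3 h and 16 h, the contrast that leaves out the vehicle livers, 3 of 7 markers fell, where 8.7% of all probe sets passed and 8.41% were lower. C1qa fell from 4.36, 4.79 and 5.14 to 2.84, 4.01 and 4.09, and was the largest change (-1.12 ± 0.28, adjusted p = 0.0117). C1qb was at 3.36, 3.37 and 3.44 at 3 h (-1.04 ± 0.31, adjusted p = 0.0364) and Clec4f at 5.24, 5.33 and 5.56 (-0.75 ± 0.20, adjusted p = 0.0197). No 16 h liver overlapped with a 3 h liver for these 3 genes or for C1qc, Cd68 and Cd163, 6 of 7 against 20.9% of all tested, whereas Lyz2 overlapped. The median marker change was -0.83 (all tested -0.42), and after quantile normalization it was -0.10 with 0 of 7 past the test, while the share of lower values among all called probe sets went from 96.6% to 72.8%. It was also 0 of 7 without the intensity trend, without RA 16 h replicates 1 and 2 together (1 liver left), without RA 3 h replicate 1 and without RA 3 h replicate 3. Without RA 16 h replicate 1 or replicate 2 alone 2 of 7 passed, and without RA 16 h replicate 3 it was 5 of 7. The shares of all probe sets that passed under these alternatives are not given here. Both contrasts use the same 16 h livers, so they are not independent of each other.

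**Figure D3:**
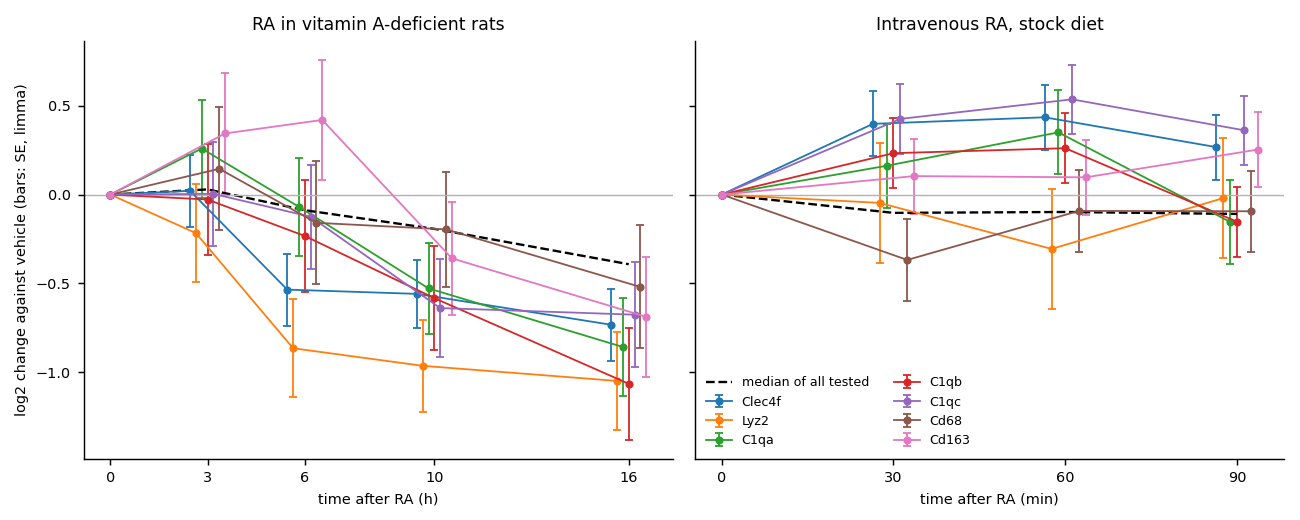
Log2 change against vehicle (y axis, bars are SE from limma) for the 7 markers by time after RA (x axis, hours in deficient rats and minutes after intravenous RA); the dashed line is the median of all probe sets tested. As deposited all 7 markers lie below 0 at 10 h and at 16 h (6 of 7 at each time after quantile normalization), and the dashed line falls to -0.39 at 16 h.

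Other macrophage genes were compared in the same contrasts. In the second run of the diet experiment 12 of 25 other Kupffer and resident macrophage genes were lower and 0 higher, with a median of -0.62. Aif1, an actin-binding protein of macrophages, differed by -1.33 ± 0.18 (adjusted p = 3.72e-06), Tyrobp, a signalling adaptor of myeloid receptors, by -1.04 ± 0.15 (adjusted p = 1.14e-05), and Id3 and Nr1h3, transcription factors needed by Kupffer cells, by -1.30 ± 0.19 and -0.96 ± 0.16. Csf1r, the receptor for the growth factor of macrophages, passed (-0.81 ± 0.16, adjusted p = 7.35e-04), as did Cd5l (-0.75 ± 0.20, adjusted p = 0.0112), whereas Adgre1, which encodes F4/80 (-0.73 ± 0.27, adjusted p = 0.0618), and Cd14, the lipopolysaccharide co-receptor (-0.36 ± 0.26, adjusted p = 0.416), did not. MHC class II genes, which present peptides on macrophages, dendritic cells and B cells, were lower in 4 of 8 cases, with Cd74 at -1.47 ± 0.15. After quantile normalization 10 of 25 other macrophage genes were lower and 1 higher, and 4 of 8 MHC class II genes were lower.

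At 16 h after RA, 5 of 25 other macrophage genes fell and 0 rose, with a median of -0.81. Cybb, the oxidase subunit of phagocytes, had 2.75, 2.57 and 2.88 in vehicle livers and -0.15, -4.06 and 2.17 at 16 h. Its change of -3.41 ± 0.77 rested on 2 of the 3 RA livers. Lgmn, a lysosomal protease, changed by -1.11 ± 0.25, Nr1h3 by -1.08 ± 0.25 and Cd5l, secreted by Kupffer cells, by -0.99 ± 0.29. Of the 8 MHC class II genes 4 fell, with Cd74 by -1.72 ± 0.27 (adjusted p = 7.61e-04). Under quantile normalization 0 of 25 other macrophage genes and 1 of 8 MHC class II genes (Cd74, -1.09) passed. Csf1r (-0.75 ± 0.29, adjusted p = 0.113), Cd14 (-0.75 ± 0.35, adjusted p = 0.201) and Adgre1 (-0.18 ± 0.38, adjusted p = 0.848) did not pass at 16 h.

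C1q starts the classical complement cascade, whose other genes were compared too. In the second run 1 of 13 was lower (Serping1, the C1 inhibitor, -0.49 ± 0.17), and at 16 h after RA 3 of 13 fell, namely Cr1l, Serping1 and C4bpa, all regulators of complement, by -0.93 ± 0.26, -0.87 ± 0.24 and -0.71 ± 0.21. Serping1 and C4bpa also passed after quantile normalization at 16 h, and Cr1l did not.

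Markers of other cells are given beside these results, and their part in them was not tested. Between the runs, 0 of 13 T and NK cell genes, 0 of 6 cholangiocyte genes, 1 of 6 B cell genes (Jchain), 2 of 11 sinusoidal endothelial genes, 2 of 5 blood genes and 1 of 4 recruited monocyte and neutrophil genes were lower, and 2 of 14 stellate cell and matrix genes and 1 of 11 hepatocyte genes were higher. The summed linear signal of the 7 Kupffer markers, in units of the array median, ranged from 107.3 to 195.8 in the first run and from 50.7 to 107.8 in the second. The 11 hepatocyte genes summed to 2702 to 7733 and 2284 to 4550, the 14 T and NK cell genes to 10.5 to 16.9 and 10.1 to 13.9, and the 8 recruited-cell genes to 8.34 to 19.6 and 6.89 to 13.4. Other sums also had lower medians in the second run: that of the Kupffer markers went from 144.3 to 79.3, of blood genes from 160.5 to 84.1, of MHC class II genes from 101.3 to 60.1 and of endothelial genes from 87.3 to 61.9. At 16 h, 0 of 7 recruited-cell genes, 0 of 14 T and NK cell genes, 0 of 5 B cell genes, 0 of 6 cholangiocyte genes and 0 of 5 blood genes passed, while 2 of 11 endothelial genes and 3 of 14 stellate genes were lower, 1 stellate gene was higher, and 1 of 11 hepatocyte genes was lower and 1 higher. The Kupffer sum was 108.1 to 144.6 in vehicle livers and 61.6 to 82.6 at 16 h, beside 11.5 to 16.4 and 9.67 to 11.6 for recruited-cell genes. Stellate genes were also lower without overlap, at 66.8 to 99.2 in vehicle livers and 32.4 to 50.8 at 16 h, and so were MHC class II genes, at 111.2 to 153.4 and 41.8 to 69.8. Endothelial genes had medians of 105.3 and 59.3, with overlap. Camp of neutrophils and Ncr1 of NK cells were below the array median on all 47 arrays.

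**Figure D4:**
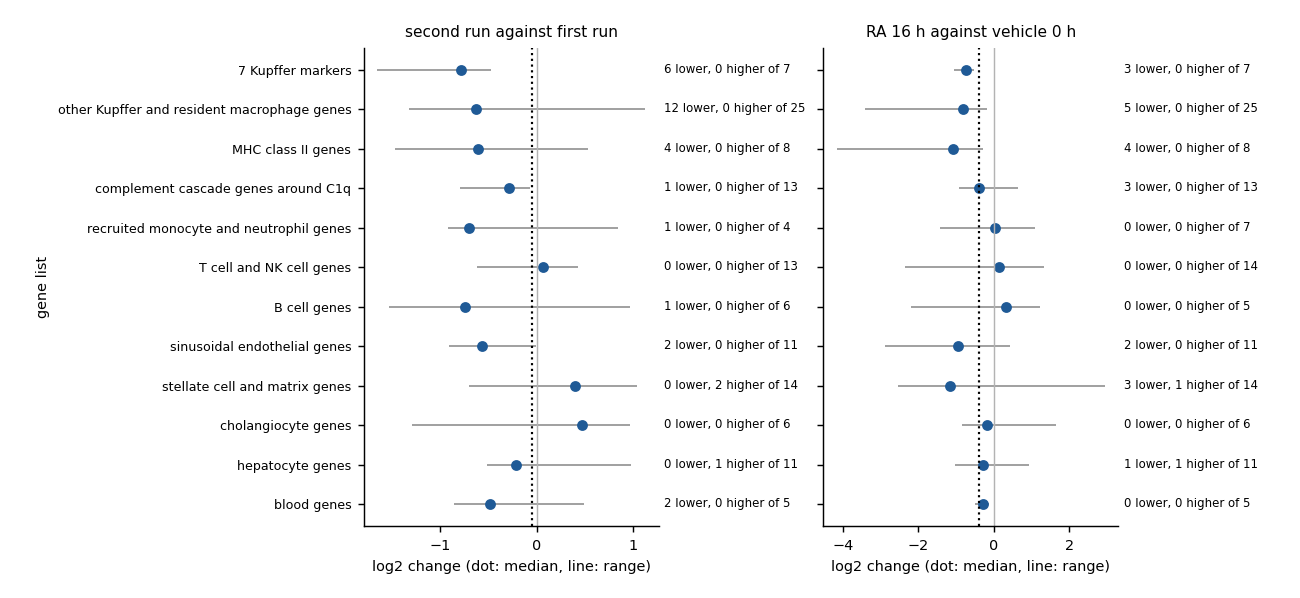
Log2 change (x axis; dot for the median, line for the range over the genes tested) of each gene list (y axis) between the runs of the diet experiment and at 16 h after RA, with the number of genes passing the test in each direction. The dotted line is the median of all probe sets tested; the Kupffer markers had 6 of 7 lower between the runs and 3 of 7 lower at 16 h.

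Intravenous RA over 90 min left the markers without a call. Here too the only vehicle group was at 0 min, so RA and time cannot be told apart. The median marker change was 0.16 at 30 min (all tested -0.10), 0.26 at 60 min (all tested -0.098) and -0.020 at 90 min (all tested -0.11; 0.13 after quantile normalization), and 0 of 7 passed at each time, where 0.0879%, 0.387% and 0.505% of the 22763 tested probe sets passed. An unadjusted limma p under 0.05 was reached by 2 of 7 at 30 min (8.94% of all probe sets), 2 of 7 at 60 min (10.1%) and 0 of 7 at 90 min (10.7%). C1qc was the largest at 60 min, with 3.15, 3.31 and 3.34 against 2.39 and 3.07 in the 2 vehicle livers. The RA livers lay above both vehicle livers (0.54 ± 0.20, 95% interval 0.12 to 0.95, adjusted p = 0.353). Between 30 min and 90 min 0 of 7 passed (0.25% of all), with 1 of 7 at an unadjusted limma p under 0.05 (7.81% of all) and a median of -0.064. Among the other lists S100a9, a calcium-binding protein of neutrophils and monocytes, rose at 90 min by 2.30 ± 0.37 (adjusted p = 0.0114).

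The markers were also compared with each other across arrays, after the mean of each group within its run had been removed. Over the 47 arrays the 21 pairs had Pearson correlations from -0.061 to 0.675, with a median of 0.317. The highest were C1qb with C1qc (0.675) and C1qa with C1qc (0.628), and C1qa with Lyz2 followed (0.585). Clec4f correlated with the C1q chains at 0.522 to 0.56. Cd163 stood apart from the C1q chains, at -0.012, -0.061 and -0.057. Values on the same array share its RNA, its hybridisation and its median centring.

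Across the 16 means of groups within runs the median correlation was higher, at 0.669, although C1qa with Lyz2 was lower (0.377 against 0.585). The range was 0.377 to 0.961 (C1qa with C1qb). Cd68 followed the C1q chains there at 0.887 to 0.901, but at 0.124 to 0.49 within groups. These means share the run difference described above.

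**Figure D5:**
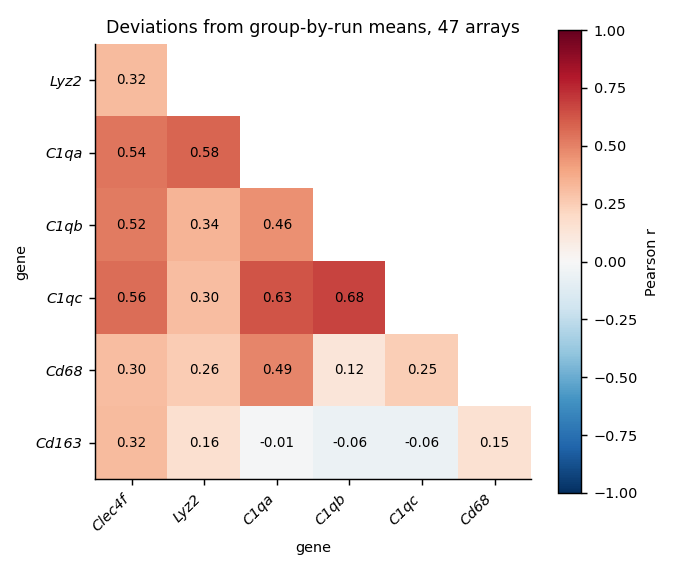
Pearson correlation of each pair of markers over 47 arrays after removal of group means within runs, with gene names on both axes and colour for the correlation. Values run from -0.061 to 0.675, with the C1q chains among the highest pairs and Cd163 with the C1q chains near 0.

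Among 14210 other named genes, those most like the mean of the markers within groups over the 47 arrays were Ctss, a lysosomal cysteine protease (0.858), Ccl6, a chemokine of myeloid cells (0.798), LOC100910973 (0.722), Fcer1g, the common chain of Fc receptors (0.717), Cd5l (0.711) and Aif1 (0.710). Across the 16 means of groups within runs the same 6 genes had correlations of 0.762, 0.831, 0.908, 0.67, 0.87 and 0.918 with the markers.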

How the data were processed

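RNA of 47 single rat livers was hybridised to Affymetrix arrays. The deposited values are log2 signals made with GCOS (version not given in the sources used here), per the submitters' processing notes, and each array's median is 0. They were used as deposited, with no further logarithm or offset. Arrays give no read depth; their number limits the precision.

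Of 31099 probe sets, 20832 carry 1 gene symbol, 436 several and 9831 none. Each experiment was fitted with limma 3.58.1 in R 4.3.3 (group means, moderated variances with an intensity trend), with the identifier run as a covariate in the diet experiment. A probe set was tested where 2 or more arrays of the experiment had it higher than percentile 40 of the array, and p-values were adjusted over all of them by Benjamini-Hochberg and called at 0.05. The procedure was checked on simulated data. A diet-by-run fit gave the interactions and within-run values.

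The 7 measured markers are named in every contrast. Of other lists, up to 4 called genes are named by size of change, plus Adgre1, Csf1r, Cd5l and Cd14, the 6 genes most like the markers, and 4 retinoid genes. Members and lists were chosen with earlier results of these data known. Alternatives were quantile normalization, no filter, no trend, array weights, an offset of 0.25, gene means, other treatments of run, the replicate number as a block, and left-out arrays.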

Additional observations from a re-analysis of the deposited data

Results flagged for a closer look

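For 4 markers every deficient liver lay on one side of the adequate mean in the first run of the diet experiment and on the other side in the second. Both deficient livers of the first run lay above the adequate mean of that run, and all 3 of the second run lay below the adequate mean of theirs. The second-run difference minus the first-run difference was -1.391 for Clec4f, -1.562 for C1qb, -1.327 for C1qc and -0.844 for Cd68 on the log2 scale. The interaction was tested with limma, and none of the 4 passed after adjustment (adjusted p = 0.224, 0.156, 0.267 and 0.401). No single array stood out by Dixon's criterion in the 28 sets of a gene and a group of 4 to 10 arrays. Chance gives about 1 in 20 only where a set comes from a single distribution. The deficient, marginal and adequate sets pooled the 2 runs, whose difference widens the range. In those sets an array apart could be masked, so the lack of a flag says little.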

How the results depend on the processing

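Counts are markers of 7 that passed, without the share of all probe sets that passed under the same setting. Quantile normalization gave 1 (Lyz2) in deficient against adequate and 1 in marginal against deficient livers, and 0 at 16 h against vehicle and 0 at 16 h against 3 h. Without the intensity trend, and without RA 16 h replicates 1 and 2, both 16 h contrasts gave 0 (the second setting leaves 1 RA liver). Array weights gave 1 (Lyz2) at 6 h and 1 at 10 h, and leaving out the arrays that stood apart gave 1 at 10 h. Leaving out 1 array gave 0 to 1 in deficient against adequate and in marginal against deficient livers, 5 to 6 between the runs, 0 to 4 in deficient against adequate within the second run, 0 to 5 in both 16 h contrasts, and 0 to 2 for the interaction of diet and run. With the replicate number of the labels as a block (replicate block), 0 passed between the runs, where Lyz2 turned to 0.071, 3 passed in deficient against adequate within the second run, 4 at 16 h and 1 (C1qb) for the interaction. All 8 second-run arrays are numbered 1 to 3, against 3 of 12 first-run arrays. No same-numbered pair had deviations correlated above 0.1, and neither had any pair with different numbers. The check gave no sign that the numbers pair the samples, but it cannot exclude a pairing. Over the alternatives of all contrasts except those within a run, 272 recomputed counts stayed close to the reported count, 12 were higher and 13 lower. Most of these contrasts had a reported count of 0, and counts that stayed at 0 are among the 272. The cause of these shifts was not tested.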
